A study of Danio rerio with 4 samples.

Results

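Transcripts of heat shock proteins and DnaJ cochaperones were compared between zebrafish retinal progenitors, dividing cells that arise from Muller glia after injury, and uninjured Muller glia. Members were chosen by name alone: probes whose gene symbol in the array files, or the current symbol of their RefSeq identifier, starts with hsp or dnaj. The letters matched 71 probes. The 4 probes for the collagen chaperone hsp47 and 1 probe of a gene outside the heat shock families were left out, which left 66 probes for 42 genes, of 8748 named genes on the array. All 66 probes were well above background on all 4 arrays by the scanner software's own call, so every member gene was tested. By textbook knowledge of the proteins, 23 genes were placed in the cytosol and nucleus, 6 in the endoplasmic reticulum (ER), 7 in the mitochondrion and 6 in other or uncertain places.

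Retinas of adult zebrafish were sorted for GFP, and total RNA of the sorted cells was hybridised to single-colour oligonucleotide arrays, 1 array per sample. Progenitors derived from Muller glia came from 1016 tuba1a:gfp fish, whose GFP is driven by the tuba1a promoter, 4 days after the retina had been poked with a needle (n = 2 arrays, fish aged 7 and 8 months). Uninjured Muller glia, which span the retina and support its neurons, came from gfap:gfp fish, whose GFP is driven by the gfap promoter (n = 2 arrays, fish aged 7 months). Injury, transgenic line and sort gate all differ between the groups and cannot be told apart. The labels call the samples duplicates and do not say whether they are separate pools of fish, so p-values measure only how far these arrays spread, which could be technical. In such sorted bulk samples, fewer cells of a type and less RNA per cell cannot be told apart.

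Chaperones of the Hsp70 family bind unfolded stretches of protein in cycles of ATP hydrolysis. DnaJ proteins (Hsp40) deliver clients to Hsp70 and start the hydrolysis, and nucleotide exchange factors such as Hsp110 end the cycle. Hsp90 acts on later folding steps of kinases and receptors, small heat shock proteins hold unfolded proteins without ATP, and the chaperonin pair Hsp60 and Hsp10 encloses proteins in the mitochondrial matrix. Each compartment has its own Hsp70 (hspa8 and the stress-inducible hsp70 genes in the cytosol, hspa5 in the ER, hspa9 in mitochondria), with its own DnaJ partners. Roles given below are those of the mammalian proteins unless zebrafish is named.

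Before comparison, the signal of each probe was divided by the 75th percentile signal of its array, which was 4816 and 4899 on the progenitor arrays and 4289 and 4455 on the glia arrays. Levels below are these scaled signals, without a unit, and differences are log2 of progenitors over glia with the standard error from limma. Log2 signals correlated at r = 0.997 between the progenitor arrays, at 0.997 between the glia arrays, and at 0.980 to 0.981 between groups. The spike-in control spots had median signals of 2923 and 3070 on the progenitor arrays against 5444 and 6145 on the glia arrays. Scaling on these spots instead moved the median difference of all genes to 0.99, against -0.11 with the 75th percentile. Scaling on each array's median moved it to -0.34. Directions of small differences therefore depend on the scaling. The within-array ratios given further on do not change with scalings by 1 constant per array (75th percentile, median and spike-in), but can with quantile normalization.

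Of the 42 genes, 12 were higher and 16 lower in progenitors, and 14 did not pass the test (limma, adjusted p below 0.05 over all probes tested). Among all 7077 named genes tested, 27.5% were called higher and 40.4% lower, 68.0% in all, so the members' shares of 28.6% and 38.1% lie near the background. Their median difference was -0.08, against -0.11 for all genes. Progenitor and glia arrays did not overlap for 38 of the 42 genes, against 88.0% of all genes. Only 1 member, hsp70.3, was called more than 2-fold higher and none more than 2-fold lower, where 7.69% and 4.0% of all genes were. The count of lower members was 6 without the first glia array and 9 without the first progenitor array, where 27.4% and 32.9% of all genes were called lower. With normexp background correction it was 5, against 16.3% of all genes. It was 26 with median scaling, against 60.5% of all genes. With spike-in scaling it was 0, against 2.37% of all genes, and all 42 members were called higher, against 93.5%. With normexp correction 12 of the 28 calls held, 14 missed the threshold and 2 turned. Calls over all genes also fell, to 11.6% higher and 16.3% lower, from 27.5% and 40.4%. Of the 16 decreases, 5 kept their call with normexp: dnaja3b, dnajb4, dnajb6b, dnajc5aa and dnajc5ga. Quantile normalization ended the calls of dnaja2b (-0.11), dnajc7 (-0.09) and hspbap1 (0.22). Of the 12 increases, 7 kept their call under all 3 other scalings (median, quantile and spike-in): hsp70.3, hspb1, hsp90aa1.1, dnajc17, hspa5, hspa4a and hsp90ab1. Spike-in scaling raised every difference by the same constant, so only the median and quantile settings could end an increase. Of the 16 decreases 0 kept their call under all 3, because the spike-in shift exceeds every decrease.

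**Figure D1:**
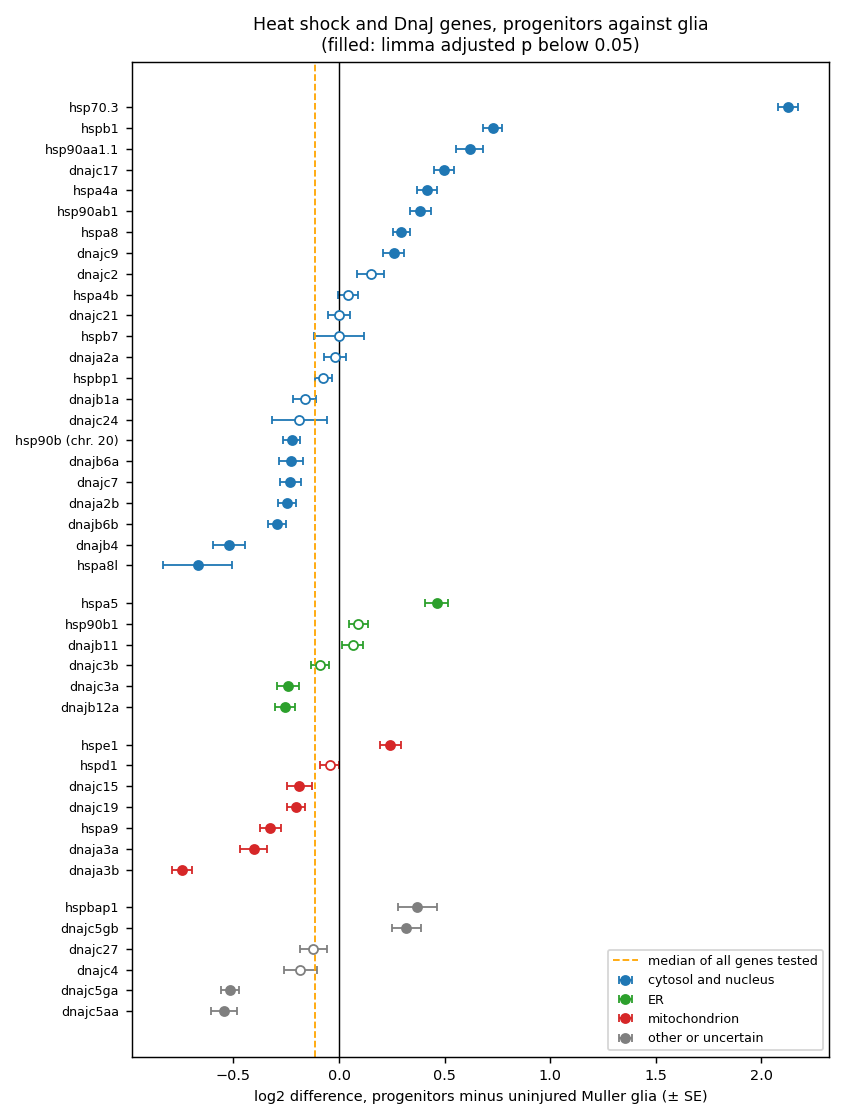
Log2 differences, progenitors minus uninjured Muller glia, of the 42 genes by compartment (x axis, bars are standard errors; n = 2 arrays each). Filled points passed the test with 75th percentile scaling, and the dashed line is the median of all genes tested. hsp70.3 stands at 2.12, while the other 41 genes lie between -0.74 and 0.73; with spike-in scaling all 42 lie above 0.

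In the cytosol and nucleus, 8 of 23 genes were higher, 7 lower and 8 neither, with a median difference of -0.00. The shares of 34.8% and 30.4% stand beside 27.5% and 40.4% of all genes. Of the cytosolic Hsp70 genes, hsp70.3 showed the widest difference of all members. hsp70.3, a stress-inducible cytosolic Hsp70, had scaled signals of 46.6 and 47.5 on the progenitor arrays, against 10.6 and 11.0 on the glia arrays. Both progenitor arrays thus lay far above both glia arrays, a 4.36-fold difference (2.12 ± 0.05, adjusted p = 0.000103). A second probe, 31.3 and 32.1 in progenitors and 6.59 and 6.93 in glia, was 4.70-fold higher (2.23 ± 0.05). The probes lie on the plus strand at chr3:16140984-16141043 and chr3:16141123-16141182 (danRer2). The older name of the second is shared by hsp70.1 and hsp70.3, so which near-identical copies the probes measured is uncertain. Over all alternative settings the difference stayed between 1.90 and 3.23, with adjusted p at most 0.00721.

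hspa8, the constitutive cytosolic Hsp70, read 53.6 and 54.0 in progenitors and 43.6 and 44.2 in glia. That is a much smaller rise of 1.23-fold (0.29 ± 0.04, adjusted p = 0.00603), and with median scaling it no longer passed (0.07, adjusted p = 0.267). hspa8l, named by its likeness to hspa8, was dim and moved the other way: 0.0190 and 0.0222 in progenitors and 0.0372 and 0.0287 in glia (-0.67 ± 0.16, adjusted p = 0.0258). This call was lost without the first glia array (-0.48), the first progenitor array (-0.56) or the second progenitor array (-0.78).

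Of the Hsp110 genes, hspa4a rose, with 3.41 and 3.27 in progenitors and 2.51 and 2.49 in glia (0.42 ± 0.05, 1.34-fold, adjusted p = 0.00334). Its paralog hspa4b gave 8.09 and 7.78 in progenitors and 7.75 and 7.65 in glia (0.04 ± 0.05, adjusted p = 0.449). The exchange factor hspbp1 did not pass either (-0.07 ± 0.04, adjusted p = 0.188).

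The inducible gene differed more than the other Hsp70 genes on the same arrays, a comparison that no constant scaling of an array changes. The ratio of hsp70.3 to hspa8 was 1.82 and 1.84 log2 units above the glia mean on the progenitor arrays, while the glia arrays lay within 0.02 of it. As a fold, the ratio of hsp70.3 was 3.55-fold higher in progenitors against hspa8, 3.17-fold against hspa5 of the ER and 5.47-fold against hspa9 of the mitochondrion. The ratio of hspa5 to hspa9 changed 1.73-fold and that of hspa8 to hspa9 1.54-fold. By the brightest probe of each gene, the order of change was thus hsp70.3, hspa5, hspa8 and then hspa9. Only 1 probe each measured hspa5 and hspa8, and the other hspa9 probe gave -0.05 ± 0.10, so the order below hsp70.3 depends on the probe. The dim hspa8l (-0.67) was not part of these ratios. These ratios are descriptions with no test of their own.

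**Figure D2:**
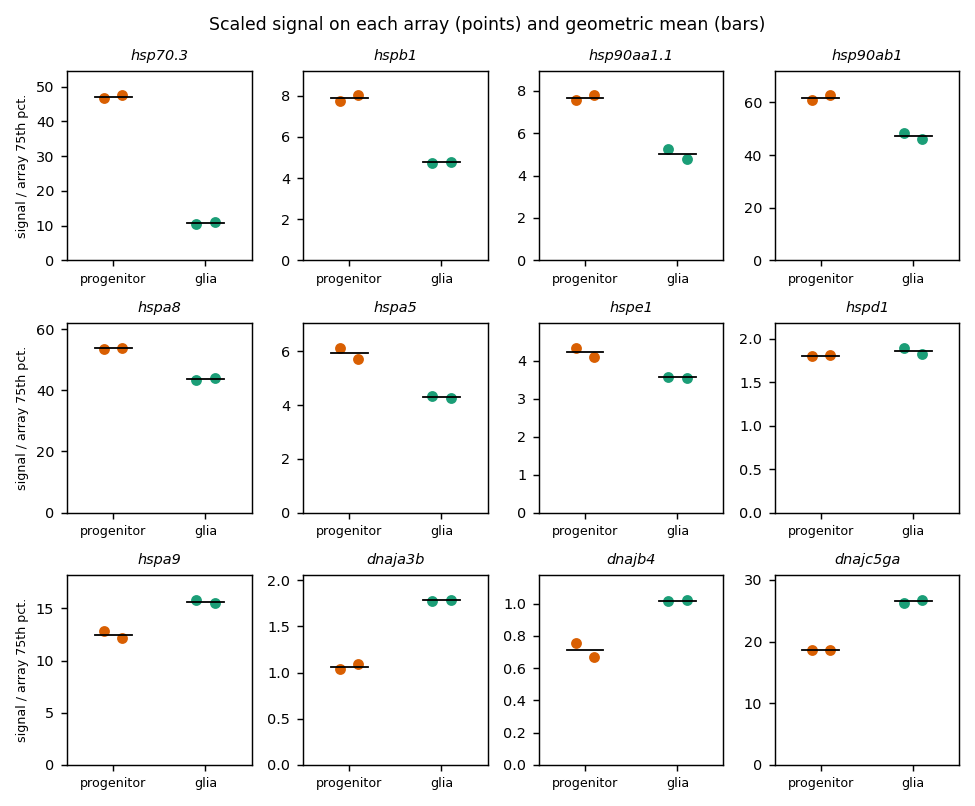
Scaled signal on each array (y axis, signal over the array's 75th percentile, from 0) for 12 heat shock and DnaJ genes. Points are the 2 progenitor arrays (left) and the 2 glia arrays (right), and bars are geometric means. The groups do not overlap in any panel, as was so for 88.0% of all genes tested. Of the genes shown, hspd1 did not pass the test (limma, adjusted p = 0.422). The gap is widest for hsp70.3, at 46.6 and 47.5 against 10.6 and 11.0.

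Among the cytosolic Hsp90 genes, 2 were called higher and the chromosome 20 hsp90b probe lower. hsp90ab1, the constitutive Hsp90 beta, was measured by 6 probes that were all called higher, with differences of 0.35 to 0.73. Its brightest probe (chr7:60373279-60373338, danRer2, minus strand) read 60.9 and 62.7 in progenitors and 48.4 and 46.2 in glia (0.38 ± 0.05, 1.31-fold, adjusted p = 0.00476).

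hsp90aa1.1, which in zebrafish is known for its part in myosin folding in muscle, had 3 probes that went different ways. The brightest read 7.55 and 7.78 in progenitors and 5.23 and 4.77 in glia (0.62 ± 0.06, adjusted p = 0.00285). The second passed the test in the other direction, at 1.14 and 1.31 in progenitors and 1.61 and 1.52 in glia (-0.36 ± 0.09, adjusted p = 0.0252). The third showed 0.0317 and 0.0338 in progenitors and 0.0324 and 0.0311 in glia (0.05 ± 0.06, adjusted p = 0.501). With the mean of its probes the gene did not pass (0.10, adjusted p = 0.239), so its direction rests on which probe is taken. A further pair of probes carries the name hsp90b but lies on chromosome 20 beside hsp90aa1.1, away from the hsp90ab1 probes on chromosome 7. They were kept apart from hsp90ab1 here and counted together as a single gene, though they carry different transcript identifiers. The brighter one read 20.4 and 20.6 in progenitors and 23.7 and 24.1 in glia (-0.22 ± 0.04, adjusted p = 0.0126), and the other did not pass (0.07 ± 0.07). That call was lost without glia array 1 (-0.23), glia array 2 (-0.21) or progenitor array 1 (-0.22).

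The small heat shock gene hspb1 (Hsp27) had the second widest increase. It read 7.76 and 8.02 in progenitors and 4.73 and 4.80 in glia, with both progenitor arrays well above both glia arrays (0.73 ± 0.04, 1.66-fold, adjusted p = 0.000859). Its difference stayed between 0.50 and 1.83 under all alternatives. hspb7, a small heat shock gene known from heart, was dim and its groups overlapped, with 0.0172 and 0.0204 in progenitors and 0.0175 and 0.0201 in glia (-0.00 ± 0.12, adjusted p = 0.989).

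DnaJ genes had a lower median than the other members. Over all compartments 3 of 25 DnaJ genes were called higher, 13 lower and 9 neither, with a median difference of -0.19. Of the 17 other members, 9 were higher, 3 lower and 5 neither, with a median of 0.24. Among all genes tested 27.5% were called higher and 40.4% lower, and the median was -0.11; with spike-in scaling all DnaJ genes lay above 0. The gap between the families is a description, and no test of it was made.

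In the cytosol and nucleus, dnajc17, an RNA-binding J protein tied to splicing, rose. It read 0.127 and 0.133 in progenitors and 0.0918 on both glia arrays (0.50 ± 0.05, 1.41-fold, adjusted p = 0.00227), and its 3 probes gave 0.43 to 0.50. With normexp background correction it did not pass (0.20, adjusted p = 0.485). dnajc9, a histone chaperone, read 2.60 and 2.57 in progenitors and 2.10 and 2.22 in glia (0.26 ± 0.05, adjusted p = 0.0137). That call was lost with median scaling (0.04), without glia array 1 (0.22), without progenitor array 1 (0.25) and without progenitor array 2 (0.27). dnajc2, which sits at the ribosome, had 0.367 and 0.404 in progenitors and 0.351 and 0.343 in glia and did not pass (0.15 ± 0.07, adjusted p = 0.112).

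Among the members matched by name, the J proteins that work with cytosolic Hsp70 in general folding were lower or did not pass by their brightest probe. A probe outside the membership rule, described as a DnaJ subfamily B member 1, was 5.95-fold higher (2.57 ± 0.05). dnajb4 had the lowest values of this group relative to glia, 0.755 and 0.668 in progenitors and 1.01 and 1.02 in glia (-0.52 ± 0.07, 1.43-fold lower, adjusted p = 0.00655). dnajb6b, whose mammalian counterpart keeps polyglutamine proteins from aggregating, read 0.604 and 0.596 in progenitors and 0.727 and 0.742 in glia (-0.29 ± 0.04, adjusted p = 0.00655). dnaja2b gave 13.5 and 13.6 in progenitors and 16.2 and 15.9 in glia (-0.25 ± 0.04, adjusted p = 0.00976), and its call was lost without glia array 1 (-0.24, adjusted p = 0.0615). Its paralog dnaja2a overlapped between groups, with 10.3 and 9.71 in progenitors and 10.3 and 9.93 in glia (-0.02 ± 0.05, adjusted p = 0.766). dnajc7, a J protein that bridges Hsp70 and Hsp90, had 8.20 and 7.79 in progenitors and 9.35 and 9.40 in glia (-0.23 ± 0.05, adjusted p = 0.0177), and its call was lost without glia array 1 (-0.23), glia array 2 (-0.23) or progenitor array 2 (-0.19). dnajb1a, a main partner of inducible Hsp70, missed the threshold at 0.539 and 0.559 in progenitors and 0.599 and 0.632 in glia (-0.16 ± 0.05, adjusted p = 0.0551). It passed as lower with median scaling (-0.39), with quantile normalization (-0.25), with an intensity trend (-0.16) and among probes well above background on all arrays (-0.16). With spike-in scaling every member gene of this paragraph lay above 0, from 0.58 for dnajb4 to 1.082 for dnaja2a.

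dnajb6a was, with hsp90aa1.1, 1 of the 2 members whose probes passed the test in opposite directions. One probe read 0.827 and 0.810 in progenitors and 0.997 and 0.923 in glia (-0.23 ± 0.06, adjusted p = 0.029). The other gave 0.960 and 1.02 in progenitors and 0.828 and 0.729 in glia (0.35 ± 0.08, adjusted p = 0.0248), and the mean of both was 0.061. The lower call was lost without glia array 1 (-0.17), progenitor array 1 (-0.24) or progenitor array 2 (-0.21). It was also lost with normexp correction (-0.22) and with no filter on dim probes (-0.23). Of the other J proteins here, dnajc21 (ribosome assembly) and dnajc24 (diphthamide synthesis) overlapped between groups, with differences of 0.00 ± 0.05 and -0.19 ± 0.13.

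In the ER, 1 of 6 genes was higher and 2 were lower, with a median difference of -0.01. These shares of 16.7% and 33.3% stand beside 27.5% and 40.4% of all genes. hspa5 (BiP), the Hsp70 of the ER lumen, read 6.14 and 5.72 in progenitors and 4.33 and 4.28 in glia, and the groups lay well apart (0.46 ± 0.05, 1.38-fold, adjusted p = 0.00397). It kept its call under every alternative run, between 0.24 and 1.56. The ER Hsp90 hsp90b1 (Grp94) had 1.76 and 1.69 in progenitors and 1.62 on both glia arrays, and did not pass (0.09 ± 0.04, adjusted p = 0.147). The ratio of hspa5 to hsp90b1 within arrays changed 1.29-fold. dnajb11 (ERdj3), a BiP partner, gave 2.25 and 2.17 in progenitors and 2.07 and 2.15 in glia (0.06 ± 0.05, adjusted p = 0.301).

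Genes encoding P58IPK-type J proteins, which also dampen the kinase that slows translation under ER stress, were not higher. dnajc3a read 0.541 and 0.574 in progenitors and 0.654 and 0.664 in glia (-0.24 ± 0.05, adjusted p = 0.0184). dnajc3b had 0.995 and 0.994 in progenitors and 1.07 and 1.05 in glia (-0.09 ± 0.04, adjusted p = 0.124). dnajb12a, a J protein of the ER membrane, gave 1.31 and 1.35 in progenitors and 1.56 and 1.61 in glia (-0.26 ± 0.05, adjusted p = 0.0124). Both lower calls were lost without glia array 1 (-0.25 for dnajc3a, -0.28 for dnajb12a), glia array 2 (-0.23 for both) or progenitor array 1 (-0.20 and -0.23). Normexp correction ended both calls too (-0.24 for dnajc3a, -0.22 for dnajb12a), and the deposited values ended that of dnajb12a (-0.25). With spike-in scaling all 6 ER genes were called higher, with a median of 1.09.

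Mitochondrial members had the lowest median of the 3 compartments, -0.20, with 1 of 7 genes higher, 5 lower and 1 neither. The lower share was 71.4%, against 40.4% of all genes, and the higher share 14.3%, against 27.5%. With normexp background correction 1 was called lower, against 16.3% of all genes. Without single arrays 2 or 3 were, against 27.4% to 33.1% of all genes. With spike-in scaling all 7 were called higher, against 93.5% of all genes, with a median of 0.90. dnaja3b, a matrix J protein of the Tid1 type, was the member furthest below glia at 1.04 and 1.09 in progenitors and 1.78 and 1.79 in glia (-0.74 ± 0.05, 1.67-fold lower, adjusted p = 0.000951). Its second probe gave -0.83 ± 0.07. The paralog dnaja3a read 3.51 and 3.24 in progenitors and 4.58 and 4.35 in glia (-0.40 ± 0.06, adjusted p = 0.00822). That call was lost with normexp correction (-0.37) and without glia array 1 (-0.37). Their partner hspa9 (mortalin), the mitochondrial Hsp70, had 12.8 and 12.2 in progenitors and 15.8 and 15.5 in glia (-0.33 ± 0.05, 1.25-fold lower, adjusted p = 0.0073). Its call was lost with normexp correction and with the mean of its probes (-0.19, adjusted p = 0.0654).

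The import motor J proteins were also on the lower side. dnajc19 gave 1.64 and 1.59 in progenitors and 1.85 and 1.88 in glia (-0.20 ± 0.04, adjusted p = 0.0187). It missed the threshold with normexp correction (-0.17) and when any single array was left out (-0.23 to -0.18). dnajc15 passed only narrowly (-0.19 ± 0.06, adjusted p = 0.0499), and was lost when any single array was left out (-0.24 to -0.14). Its call was also lost with normexp correction (-0.23) and with the deposited values (-0.20). With no filter on dim probes, the replicate block or the mean of probes it did not pass either (-0.19 in each). The chaperonin genes differed from each other. hspe1 (Hsp10) read 4.34 and 4.10 in progenitors and 3.58 and 3.55 in glia (0.24 ± 0.05, adjusted p = 0.017), while hspd1 (Hsp60) gave 1.80 and 1.81 in progenitors and 1.90 and 1.83 in glia (-0.04 ± 0.04, adjusted p = 0.422). The hspe1 call was lost with median scaling (0.02), with normexp correction, and without glia array 1 (0.25), glia array 2 (0.24) or progenitor array 1 (0.20). The ratio of hspe1 to hspd1 changed 1.22-fold within arrays. Further hspd1 probes gave -0.22 ± 0.05, which passed as lower (adjusted p = 0.0271), and 0.25 ± 0.10, which did not pass (adjusted p = 0.0855).

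Cysteine string protein genes (dnajc5) went in both directions. Mammalian DNAJC5 is a J protein of synaptic vesicles that keeps release machinery folded. That role is not assumed here for dnajc5ga and dnajc5gb. dnajc5aa had 4.14 and 3.96 in progenitors and 5.69 and 6.14 in glia (-0.55 ± 0.06, 1.46-fold lower, adjusted p = 0.0034). dnajc5ga gave 18.6 and 18.5 in progenitors and 26.3 and 26.8 in glia (-0.52 ± 0.04, 1.43-fold lower, adjusted p = 0.00154). Both were lower with every alternative except spike-in scaling, where they lay at 0.56 and 0.59. The dim dnajc5gb was on the other side, at 0.0283 and 0.0302 in progenitors and 0.0245 and 0.0224 in glia (0.32 ± 0.07, adjusted p = 0.019). It turned to -0.38 with normexp correction. Its call was lost with median scaling (0.10), with the deposited value table (0.30), without glia array 2 (0.26) and without progenitor array 2 (0.27). All 13 cone markers tested were lower in progenitors. Their summed scaled signal was 376 and 381 on the progenitor arrays and 670 and 651 on the glia arrays. Of 6 rod markers 5 were lower, with sums of 305 and 309 in progenitors and 355 and 348 in glia. Among all genes tested 40.4% were called lower. The median difference was -0.90 for cone and -0.20 for rod markers, against -0.11 for all genes. The part of neuronal RNA in the dnajc5 differences was not tested. The remaining members of uncertain place were hspbap1, dnajc4 and dnajc27. hspbap1 passed as higher (0.37 ± 0.09, adjusted p = 0.0291) by its brightest probe only and turned to -0.17 with normexp correction. Its call was lost with median scaling (0.15), with the mean of its probes (0.09), with no filter on dim probes (0.37), without glia array 1 (0.29) and without progenitor array 2 (0.28). By their brightest probe dnajc4 and dnajc27 did not pass, at -0.18 ± 0.08 and -0.12 ± 0.06. The second dnajc4 probe passed as lower (-0.19 ± 0.04, limma, adjusted p = 0.0227). The mean of the dnajc4 probes passed narrowly (-0.19, limma, adjusted p = 0.04996).

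**Figure D3:**
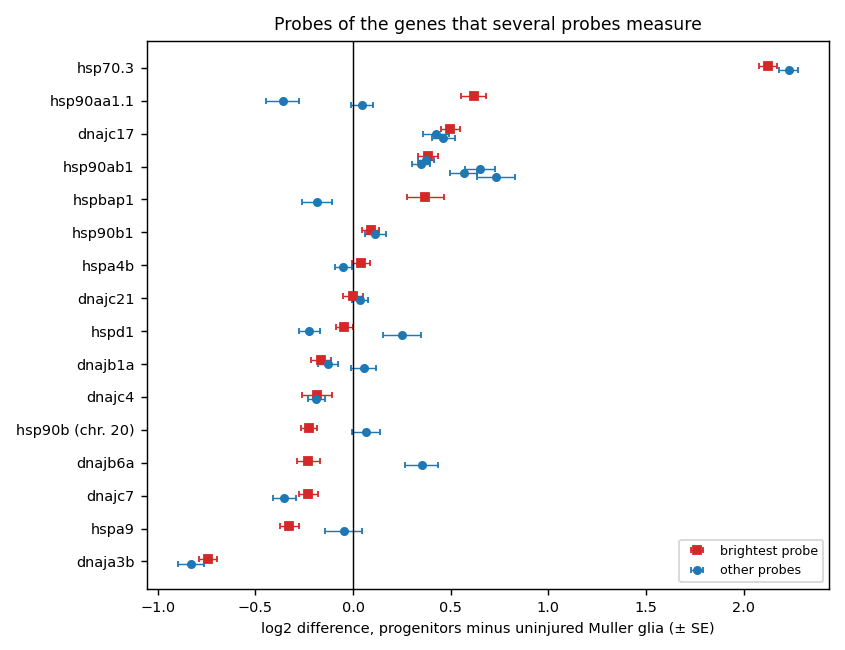
Log2 differences, progenitors minus uninjured Muller glia (x axis, bars are standard errors), for every probe of the 16 genes with several probes. Squares are the brightest probe, which stands for the gene, and circles the other probes. The probes of hsp70.3, hsp90ab1, dnajc17 and dnaja3b lie on 1 side of 0, whereas those of hsp90aa1.1 reach from -0.36 to 0.62.

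Where probes of a gene disagreed, their place along the gene was compared. This comparison was chosen after the values were seen, and the strand was read from the order of the coordinates in the files. For 10 member genes the outermost probes lay at least 1000 bases apart on the danRer2 genome. The chromosome 20 hsp90b probes are among them, though they carry different transcript identifiers and may not measure the same gene. In 8 of the 10 the upstream probe, nearer the start of the gene, gave the higher difference, with a median gap of 0.28. The gap was 0.98 for hsp90aa1.1, 0.58 for dnajb6a, 0.47 for hspd1, 0.36 for hsp90ab1, 0.29 for the hsp90b probes on chromosome 20 and 0.28 for hspa9. Smaller gaps were those of dnajb1a (0.22) and dnajc4, whose 0.006 is below the standard errors of its probes (0.08 and 0.04). The gap ran the other way for hspbap1 (-0.56) and dnaja3b (-0.09). Among 660 named genes with such probes, the upstream probe was the higher in 64.7%, with a median gap of 0.06. With quantile normalization that share was 44.5% and with normexp correction 44.4%, while the same 8 members kept the direction with quantile normalization and 7 of them with normexp, without dnajb1a. The upstream probe was the dimmer in 8 of the 10 members and in 90.6% of the 660 genes. Among members it was the brighter for hsp90aa1.1 and dnajc4. The part of probe brightness, of RNA length or of labelling from the 3′ end in these gaps was not tested. For hsp90ab1 the probes near the end of the gene gave 0.37 and 0.38 and the most upstream probe 0.73, so its direction did not depend on the probe while its size did. Probes outside the membership rule were left out of this comparison. A dim probe described as Hspd1 lies further upstream (chr9:28580349-28580409) and gave -0.37 ± 0.17 (limma, adjusted p = 0.132). With it as the upstream end, the hspd1 gap would run the other way. Another dim probe lies between the dnajb6a probes (chr2:27509179-27509238) and gave -0.61 ± 0.07 (limma, adjusted p = 0.00352).

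**Figure D4:**
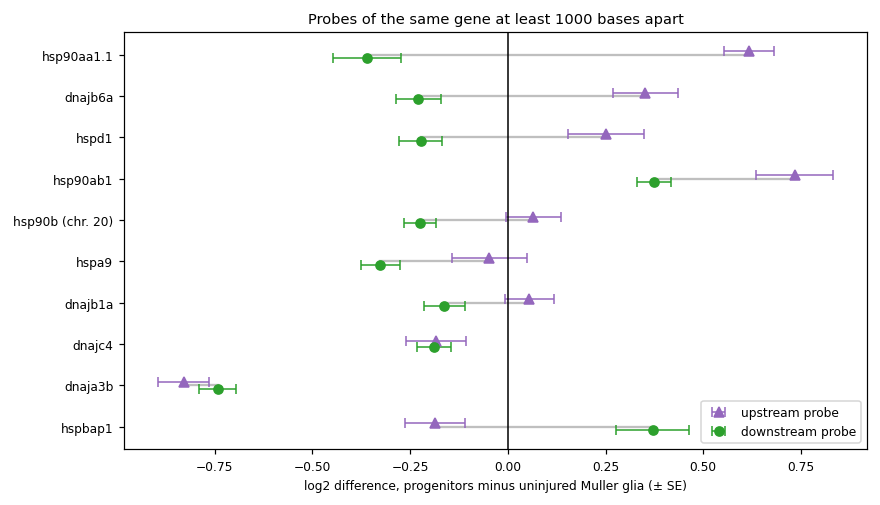
Log2 differences, progenitors minus uninjured Muller glia (x axis, bars are standard errors), of the most upstream probe (triangles) and the most downstream probe (circles) of 10 member genes. In 8 of the 10 the triangle lies to the right of the circle, by only 0.006 for dnajc4. The gap is widest for hsp90aa1.1, whose probes are 0.98 apart. The hsp90b probes on chromosome 20 carry different transcript identifiers and may not measure the same gene.

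Partners and regulators of the chaperone cycle outside the family were counted from a list of 70 genes, of which 36 could be tested. Of these 9 were higher, 11 lower and 16 neither, with a median difference of -0.03, against 27.5% and 40.4% of all genes. The heat shock transcription factor hsf1 read 1.203 and 1.073 in progenitors and 0.903 and 0.832 in glia (0.39 ± 0.08, adjusted p = 0.0186). By its brightest probe hsf2 did not pass (-0.13, adjusted p = 0.139), and its other probe gave 0.30.

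The 3 widest increases on this list were calr3b, bag3 and creld2. bag3, an exchange factor that links Hsp70 to small heat shock proteins, gave 0.824 and 0.835 in progenitors and 0.481 and 0.498 in glia (0.76 ± 0.05, adjusted p = 0.000791). The ER lectin gene calr3b read 0.0905 and 0.0793 in progenitors and 0.0386 and 0.0281 in glia (1.36 ± 0.18, adjusted p = 0.00533). creld2, known as an ER stress gene, had 0.304 and 0.287 in progenitors and 0.182 and 0.175 in glia (0.72 ± 0.05, adjusted p = 0.00132). On the lower side, the dim myosin chaperone gene unc45b fell by 1.12 (± 0.07, adjusted p = 0.00102). It read 0.0181 and 0.0176 in progenitors and 0.0364 and 0.0410 in glia. The bright fkbp5 read 17.7 and 18.7 in progenitors and 32.6 and 33.0 in glia (-0.85 ± 0.05, adjusted p = 0.000763). Also called lower were ptges3a (-0.39), st13 (-0.35) and fkbp4 (-0.15), while ppid (0.54) and ptges3b (0.30) were called higher. The Hsp90 activator gene ahsa1a was not well above background in progenitors and was at least 1.16-fold lower there. For sec61b, part of the ER translocon, the brightest probe gave -5.60 ± 0.17 and put it among the lower genes counted above. Its 3 probes ranged from -5.60 to 0.71, so no direction is given for the gene itself. Genes of the ER and its stress response went both ways. calr3a (0.64), pdia4 (0.58) and sec61g (0.25) were called higher. ero1a (-0.34), sec63 (-0.25) and the stress regulator atf4a (-0.49) were called lower. xbp1 (-0.03), canx (-0.02), pdia6 (0.06), sdf2l1 (0.12) and p4hb (-0.21) did not pass by their brightest probe. The other pdia6 probe gave 0.34.

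Markers of the sorted cells and of other cell types moved between the groups as well. The counts below stand beside 27.5% of all genes called higher and 40.4% called lower, with 75th percentile scaling. All 10 Muller glia markers tested were well above background on all arrays, 6 higher and 1 lower in progenitors, with summed scaled signals of 335 and 341 in progenitors and 254 and 258 in glia. The 10 progenitor and proliferation markers were all higher, with sums of 33.9 and 33.6 in progenitors and 6.17 and 6.18 in glia. Microglia and leukocyte markers were higher for 9 of 10, with sums of 67.9 and 63.7 in progenitors and 25.03 and 24.77 in glia. Skin and epithelium markers were lower for 7 of 7, with sums of 1.45 and 1.38 in progenitors and 20.2 and 20.2 in glia. Erythrocyte markers were lower for 5 of 6, with sums of 79.3 and 77.9 in progenitors and 106 and 105 in glia. These sums include cahz, which also stands among the Muller glia markers and did not pass. Without it they were 32.9 and 33.8 in progenitors and 64.9 and 64.2 in glia. hsp70.3, hspb1 and hspa5 are used by many cell types, and the part of leukocyte, skin or blood RNA in their differences was not tested.

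**Figure D5:**
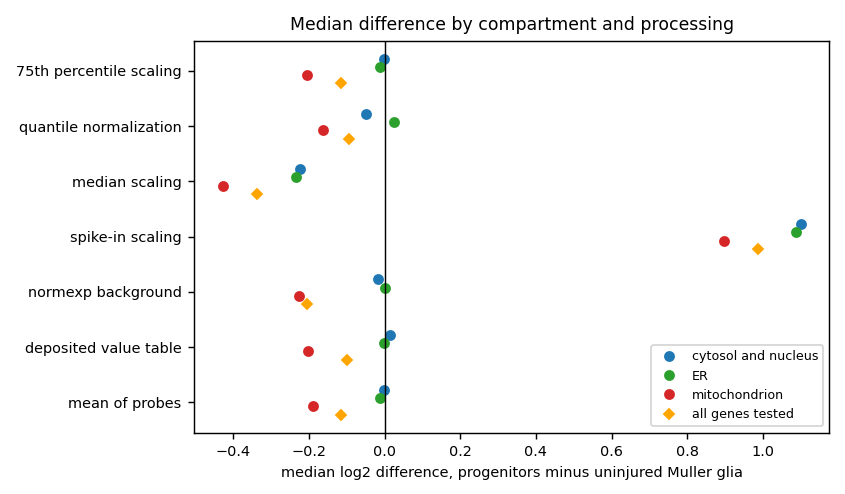
Median log2 difference, progenitors minus uninjured Muller glia (x axis), of the cytosolic and nuclear, ER and mitochondrial members and of all genes tested, under 7 ways of processing the signals (rows). The mitochondrial median is the lowest of the 3 compartments in every row. It runs from -0.43 with median scaling to 0.90 with spike-in scaling, where every median lies above 0. Both of these scalings shift all differences by the same constant, so they could not change the order of the compartments. With normexp correction the mitochondrial median was -0.23, against -0.20 for all genes. With quantile normalization it was -0.16, against -0.09 for all genes.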

How the data were processed

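Per the file headers, Agilent Feature Extraction 9.5.3.1 gave each spot a linear intensity after background subtraction and detrending (the submitters' processing notes name 9.1). All 4 arrays lie on 1 slide. The deposited table of intensity values equalled the background-subtracted signal for 100% of probes (relative tolerance 0.001) and served as an alternative.

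Here the processed intensity in the deposited scanner files was taken to log2 and each array's 75th percentile was subtracted. Control spots (1417) and spots marked as outliers (0 and 3 on progenitor arrays, 11 and 23 on glia arrays) were left out. The 2 spots per probe were averaged. Probes well above background on both arrays of at least 1 group were tested (16596 of 21495) with limma 3.58.1 in R 4.3.3 (lmFit, eBayes, no block; data.table, version 1.17.8), adjusted by Benjamini-Hochberg over all of them. The brightest probe stood for a gene. With 2 arrays per group, their number limits the precision. The test was also tried on simulated data, which cannot show whether the duplicates are separate pools of fish. No result above rests on that trial.

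Of the 66 member probes 58 were named by their accession in the GRCz12tu RefSeq gene table and the others by a current, older or file name. Coordinates are those of the files, on danRer2, counted from 1. Compartments were assigned by symbol. The members, gene lists, tests and alternatives were chosen with earlier results of these data known. Values are printed for a preset list of canonical chaperones, the 6 largest changes in each direction, genes with oppositely called probes and the 3 largest changes each way of the cycle list. Other genes were named after their values were seen. hspa13, hsp70l, hsp90aa1.2, dnajb9, dnajc10, dnaja1, dnaja4, hspb8 and hsph1 were on that preset list and are not analysed here as members. Promoter and protein sequences were not used here. Alternatives changed scaling, background, filter, value source, probe choice, variance model, replicate block and single arrays.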

Additional observations from a re-analysis of the deposited data

How the results depend on the processing

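With median scaling 7 members were higher and 26 lower, with normexp correction 7 and 5, and with spike-in scaling 42 and 0. Among all genes tested, 18.3% were higher and 60.5% lower with median scaling. These shares were 11.6% and 16.3% with normexp and 93.5% and 2.37% with spike-in scaling. Leaving out 1 array gave 9 to 10 higher and 6 to 11 lower, beside 21.1% to 23.2% and 27.4% to 33.1% of all genes. The same shares stand beside the compartment counts that follow. Further shares of all genes are 27.5% higher with quantile normalization, 35.3% lower with the deposited values and 40.1% lower with the mean of probes. Cytosolic and nuclear members: spike-in scaling gave 23 higher and 0 lower, median scaling 13 lower and normexp 2 lower, and single arrays left out 7 to 8 higher and 2 to 5 lower. ER members: quantile normalization gave 2 higher, spike-in scaling 6 higher and 0 lower, normexp 0 lower, the deposited values 1 lower, and single arrays left out 1 higher and 0 to 2 lower. Mitochondrial members: median scaling and normexp gave 0 higher, spike-in scaling 7 higher and 0 lower, normexp 1 lower, the mean of probes 3 lower, and single arrays left out 0 to 1 higher and 2 to 3 lower. Median differences with median scaling were -0.30 for members (-0.18 with normexp), -0.22 cytosolic and nuclear, -0.24 ER and -0.43 mitochondrial, and with spike-in scaling 1.02, 1.099, 1.09 and 0.90. With single arrays left out they ran from -0.09 to -0.07 for members, -0.05 to 0.02 cytosolic and nuclear, -0.03 to 0.00 ER and -0.24 to -0.21 mitochondrial. Spike-in scaling turned 25 genes above 0: dnaja2a (1.082), dnaja2b (0.86), dnaja3a (0.70), dnaja3b (0.36), dnajb12a (0.84), dnajb1a (0.94), dnajb4 (0.58), dnajb6a (0.87), dnajb6b (0.81), dnajc15 (0.91), dnajc19 (0.90), dnajc24 (0.91), dnajc27 (0.98), dnajc3a (0.86), dnajc3b (1.01), dnajc4 (0.92), dnajc5aa (0.56), dnajc5ga (0.59), dnajc7 (0.87), the chromosome 20 hsp90b probe (0.88), hspa8l (0.43), hspa9 (0.78), hspb7 (1.099), hspbp1 (1.03) and hspd1 (1.06). Median scaling turned dnajc21 (-0.22) and hspa4b (-0.18), normexp dnajc5gb (-0.38) and hspbap1 (-0.17), and the mean of probes dnajb6a (0.061). Median and spike-in scaling each differ from the 75th percentile by 1 constant per array, and the cause of the other changes was not tested. Calls with the same direction and side of the threshold under every alternative were 5 of the 12 increases (hsp70.3, hspb1, hspa5, hspa4a and hsp90ab1). With spike-in scaling, whose shift exceeds every decrease, no decrease could keep its sign. Under all other alternatives 5 of the 16 decreases (dnaja3b, dnajb4, dnajb6b, dnajc5aa and dnajc5ga) and the same 5 increases kept their call.

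Deviations of same-numbered arrays correlated at 0.06, with 2 pairs only, so the numbers were not taken to pair samples. With the replicate block 12 members were higher and 14 lower, without dnajc15 and hspa8l. The share of increases among called genes was 40.5% (42.9% of called members), against 23.2% (21.2%) with median scaling and 97.5% (100%) with spike-in scaling. hspa8l, hspb7, hspbap1, dnajc5gb and dnajc27 are dim, and their values move with the background correction.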

Other observations

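Some probes name a chaperone only in their description and so lie outside the membership rule. These 17 were chosen by that text after the values were seen. Of these 4 were higher in progenitors, 7 lower, 5 did not pass the test and 1 was not tested, beside 27.5% of all named genes called higher and 40.4% lower. The widest difference was at a probe described as DnaJ (Hsp40) homolog, subfamily B, member 1 (chr4:8402050-8402108, danRer2, minus strand). It read 11.6 and 11.2 in progenitors and 1.89 and 1.93 in glia, which is 5.95-fold higher (2.57 ± 0.05, limma, adjusted p = 7.22e-05) and wider than for hsp70.3. A probe described as similar to human DnaJ B1 lay on the other side, with 7.13 and 7.16 in progenitors and 9.51 and 10.1 in glia (-0.45 ± 0.05, adjusted p = 0.00331). The described chaperonin 10 probe was higher (0.38 ± 0.04, adjusted p = 0.0031), as was one for DnaJ C1 of the ER membrane (0.24 ± 0.04, adjusted p = 0.011). A dim Dnajb9 probe was also higher (0.44 ± 0.08, adjusted p = 0.013). Another probe described as DnaJ B9 did not pass (0.11 ± 0.10, adjusted p = 0.397), and a further Dnajb9 probe was not tested. The probe described as an ER DnaJ/PDI fusion protein did not pass (0.22 ± 0.09, adjusted p = 0.105). The probe described as the mitochondrial 75 kDa heat shock protein (TRAP1) was lower (-0.38 ± 0.04, adjusted p = 0.00337), and so was one for Dnajb12 (-0.39 ± 0.04, adjusted p = 0.0032). A described heat shock protein 8-like probe gave -0.74 ± 0.05 (adjusted p = 0.00114), on the same side as hspa8l. These descriptions are those of the array design and were not checked against sequence.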
